A study of Caenorhabditis elegans with 12 samples.

Results

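The cytosolic ribosome of *Caenorhabditis elegans* is built from ribosomal RNA and a set of small, mostly basic proteins. The genes of these proteins were followed here in the mRNA of young adult worms. A gene was included when its WormBase gene name in WBcel235 begins with *rpl-* (large subunit) or *rps-* (small subunit) or is *rla-0*, *rla-1* or *rla-2* (the acidic proteins of the stalk of the large subunit). Mitochondrial ribosomal protein genes and pseudogenes were left out. This gave 81 genes of the 46653 identifiers counted, with 47 large subunit genes, 31 small subunit genes and 3 stalk genes. All 81 passed the filter on low counts that left 16741 genes to be tested. The set holds 25 genes on chromosome I, 10 on II, 18 on III, 18 on IV, 8 on V and 2 on X. Older and newer nomenclature differ for 20 of them: *rla-1*, for example, is *rplp-1* in RefSeq. The rule does not reach 4 genes that carry a ribosomal protein symbol in RefSeq alone (Y37E3.8, C37A2.7, W01D2.1 and *ubl-1*).

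Ribosomal proteins are made in the cytoplasm, carried into the nucleolus and assembled there on the nascent ribosomal RNA. Their mRNAs are among the most abundant of growing cells, and their levels are usually kept close to one another because the subunits take up the proteins in fixed proportions. In adult hermaphrodites, the germline is a large consumer of ribosomes. Insulin/IGF-1 signalling (IIS), the pathway that the *age-1* mutation reduces, is a known regulator of growth and protein synthesis.

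The 4 groups were *age-1(hx546); rde-4(ne301)* double mutants, *rde-4(ne301)* mutants, *age-1(hx546)* mutants and N2 wild type (WT), each with 3 independently grown populations. RDE-4 binds double-stranded RNA and works with Dicer in making small interfering RNAs, and *ne301* is a null allele, and AGE-1 is the catalytic subunit of the phosphatidylinositol 3-kinase of IIS, which *hx546* reduces without removing it. Worms were grown at 20 °C and taken on the first day of adulthood, before embryos could be seen in them, and total RNA of whole worms was depleted of ribosomal RNA before strand-specific sequencing. Both mutations are carried by every cell, and whole worms were sampled, so that a lower share of cells rich in an mRNA and less of that mRNA per cell cannot be told apart.

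Library totals ran between 74501098 and 82446102 counts. The transcript of *rde-4* was at 25.4 to 31.99 CPM (a gene's counts relative to the library total after scaling) in the 6 libraries whose labels carry *ne301*, against 138 to 201 CPM in the other 6. The libraries WT 1 and WT 3 lay at one end of the first principal component, which held 36.3% of the variance. Summed markers of germ cells (911 to 1418 CPM in *age-1; rde-4*, 1395 to 1692 in *rde-4*, 1288 to 1399 in *age-1* and 1290 to 1645 in WT) and of oocytes (2562 to 5226 CPM in *age-1; rde-4*, 4154 to 5765 in *rde-4*, 4407 to 4668 in *age-1* and 4102 to 6087 in WT) overlapped between every mutant and WT. In *age-1; rde-4* against WT, all 5 germ cell markers nevertheless had a fitted log2 fold change below 0 (median −0.24). So did all 5 oocyte markers (median −0.23). In *rde-4* against WT, 0 of 5 germ cell markers (median 0.11) and 1 of 5 oocyte markers (median 0.02) were below 0. All 5 of each list were below 0 in *age-1* against WT (medians −0.11 and −0.17). The same held in *age-1; rde-4* against *rde-4* (medians −0.35 and −0.26). Against *age-1*, 4 of 5 of each list were below 0 in *age-1; rde-4* (medians −0.13 and −0.06). None of these markers had an adjusted p under 0.05, and their part in the levels of ribosomal protein genes was not tested. Of the 5 early embryo markers, 4 (*end-1*, *pes-10*, *tbx-37* and *tbx-38*) were at 0 in some library. CPM here are scaled by the trimmed mean of M values (TMM), and tests are those of edgeR's quasi-likelihood model of all 12 libraries with adjustment by Benjamini and Hochberg over the 16741 genes. A gene is said to rise or fall at an adjusted p under 0.05.

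The 81 genes took up a large and fairly even part of every library, smaller in double mutants than in WT. Their share of all counts was 10.7%, 9.66% and 10.03% in *age-1; rde-4* mutants, 11.06%, 10.05% and 10.38% in *rde-4* mutants, 11.09%, 10.84% and 10.91% in *age-1* mutants, and 11.82%, 11.11% and 11.36% in WT. The means were 10.13 ± 0.53% in *age-1; rde-4*, 10.5 ± 0.51% in *rde-4*, 10.95 ± 0.13% in *age-1* and 11.43 ± 0.36% in WT (SD, n = 3 populations each). Every double mutant library was below every WT library, while neighbours in the order of means overlapped for *age-1; rde-4* and *rde-4* and for *rde-4* and *age-1*. The *age-1* libraries ended just under the lowest WT library. A share does not depend on the scaling between libraries, but it does depend on what else was sequenced. Genes of the mitochondrial genome took 11.21% to 16.59% of the counts in *age-1; rde-4* and 10.98% to 14.3% in WT. Of the counts of nuclear protein-coding genes alone, the 81 genes held 11.91 ± 1% in *age-1; rde-4* and 13.21 ± 0.64% in WT, and the highest double mutant library (13%) then lay within the range of WT (12.8% to 13.9%).

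**Figure D1:**
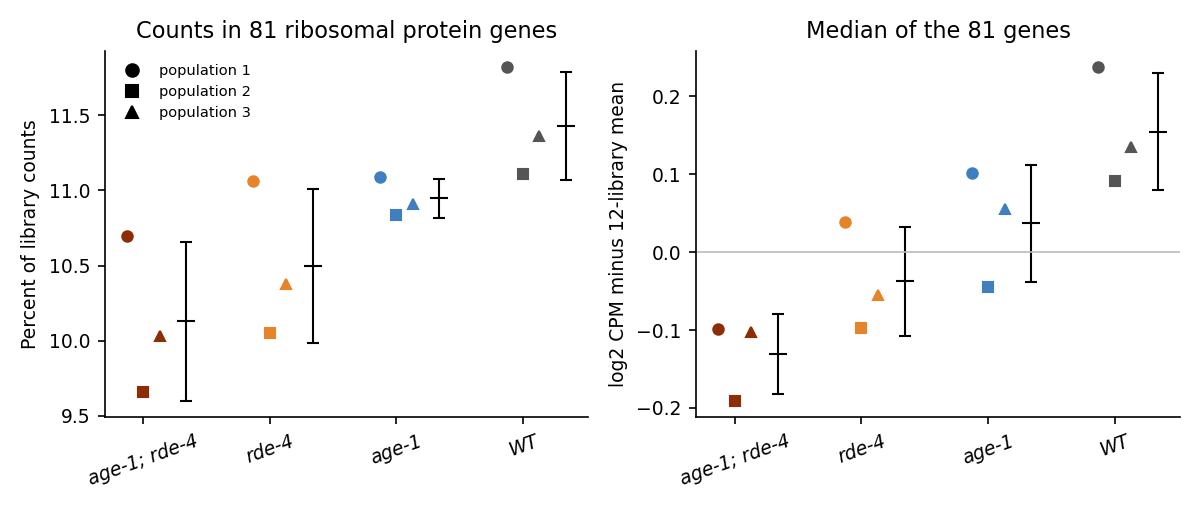
Left, the percent of all counts of a library that fell in the 81 ribosomal protein genes, and right, the median over the 81 genes of log2 CPM after each gene's 12-library mean was taken off. Points are populations, bars are mean ± SD (n = 3), and the axes do not start at 0. The *age-1; rde-4* points (9.66% to 10.7% on the left) all lie under the WT points (11.11% to 11.82%).

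Levels of the single genes were compared as CPM per kb of exon, since the genes differ in length. The median of the 81 genes was 2086 CPM per kb, the middle of the genes lay between 1326 and 3307 CPM per kb (quartiles), and 71 of 81 were at 500 CPM per kb or more. The highest was *rps-23* (F28D1.7, chromosome IV from 12390298 to 12391053), a protein of the decoding centre of the small subunit, at 6555 CPM per kb. It was followed by *rps-25* with 5769, the stalk gene *rla-1* with 5163, *rpl-23* with 5070 and *rpl-36* with 5060 CPM per kb. The lowest were *rpl-42* with 1.36, *rpl-37* with 10.7, *rpl-25.1* with 21.9, *rpl-43* with 89.8 and *rpl-24.2* with 159 CPM per kb. Of these, *rpl-24.2* is named *rsl-24D1* in RefSeq, a name that links it to the assembly of the large subunit. RefSeq names *rpl-37* as *rpl-37.2*, and names W01D2.1, which the naming rule leaves out, *rpl-37.1*. The scarce genes stood far below the median of the set.

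The lowering was widest in *age-1; rde-4* double mutants. Against WT, 30 of the 81 genes fell and none rose, while 3.17% of all genes tested fell in this comparison (530 of 16741) and 8.95% rose (1499). At an unadjusted p under 0.05, 52 genes were lower and none higher, where 10.6% of all genes tested were lower and 15.9% higher. The 3 double mutant libraries lay under all 3 WT libraries in 47 of the 81 genes (11.9% of all genes tested). The median log2 fold change of the 81 genes was −0.29, a change of −18.0%, beside −0.02 over all genes tested, and 77 of 81 genes were below 0 (51.9% of all genes). Of 803 abundant protein-coding genes outside the set (a mean of 200 CPM or more), 650 were also below 0. In 250 of these 803 the double mutant libraries lay under all WT libraries. Below 0 were also 35 of 35 initiation factor genes, 31 of 31 aminoacyl-tRNA synthetase genes and 68 of 69 mitochondrial ribosomal protein genes. The fall was spread over the particle: 16 of 47 large subunit genes fell (median −0.30), 13 of 31 small subunit genes (median −0.29) and 1 of 3 stalk genes (median −0.34).

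The stalk recruits the GTPases of translation, and its gene *rla-1* (Y37E3.7, chromosome I from 2069086 to 2069575), which encodes the P1 protein, had the lowest adjusted p of the set. It was at 1774, 2005 and 2045 CPM in *age-1; rde-4* mutants, against 2579, 2602 and 2691 CPM in WT, and thus well apart. The log2 fold change was −0.43 ± 0.08 (SE), with an adjusted p of 0.0052. For *rla-0*, the P0 protein that anchors the stalk to the ribosomal RNA, the values were 3274, 3992 and 4311 CPM in double mutants, against 4403, 5054 and 5147 CPM in WT, with a log2 fold change of −0.34 (adjusted p = 0.058). For *rla-2*, a P2 protein, they were 523, 552 and 587 CPM in double mutants, against 707, 646 and 660 CPM in WT, with a log2 fold change of −0.28 (adjusted p = 0.068). Both genes were lower in every double mutant library than in any WT library, but neither passed the test. Reads of *rla-1* lie opposite to *arl-13*, a gene on the other strand, and the libraries were strand-specific.

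Among the large subunit genes, *rpl-28* (R11D1.8, chromosome V from 12727593 to 12728112) was at 199, 213 and 209.7 CPM in *age-1; rde-4*, against 271, 258 and 287 CPM in WT. Its log2 fold change was −0.39 ± 0.08 (SE), with an adjusted p of 0.0092. The gene of RPL-3, a protein that reaches close to the peptidyl transferase centre, was at 3344, 3412 and 3679 CPM in *age-1; rde-4*, against 4456, 4345 and 4578 CPM in WT, and fell by 0.36 on the log2 scale (adjusted p = 0.013). The genes *rpl-13* (fell by 0.36), *rpl-15* (fell by 0.37), *rpl-20* (fell by 0.34) and *rpl-21* (fell by 0.33) had adjusted p of 0.010 to 0.018. All of these were lower in each double mutant library than in any WT library. The lowest fitted value among the genes that fell was that of *rpl-26*, whose protein sits at the exit of the peptide tunnel. It was at 1430, 1305 and 1038 CPM in *age-1; rde-4*, against 1873, 1635 and 1698 CPM in WT, with a log2 fold change of −0.46 ± 0.12 (SE) and an adjusted p of 0.025. A small nucleolar RNA (snoRNA) lies inside *rpl-26*, and 13 of the 81 genes hold 19 snoRNAs. Of these 13 host genes, 3 fell (median −0.30), beside 27 of the other 68 (median −0.29).

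Among the small subunit genes, *rps-3*, whose protein lines the mRNA entry channel, was at 2115, 2015 and 2232 CPM in *age-1; rde-4*, against 2792, 2670 and 2737 CPM in WT. It fell by 0.37 on the log2 scale (SE 0.08, adjusted p = 0.014). The gene of RPS-0, known as uS2 or the laminin receptor homologue, was at 964, 1040 and 1033 CPM in the double mutants, against 1205, 1303 and 1392 CPM in WT (fell by 0.36, adjusted p = 0.015). For *rps-2*, another protein near the entry channel, the levels were 1201, 1383 and 1386 CPM in double mutants, against 1616, 1737 and 1800 CPM in WT (fell by 0.38, adjusted p = 0.018). RPS-6 is the protein phosphorylated by S6 kinase in many animals. Its gene was at 1029, 1076 and 1152 CPM in *age-1; rde-4*, against 1314, 1317 and 1366 CPM in WT, and fell by 0.30 on the log2 scale (adjusted p = 0.028).

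**Figure D2:**
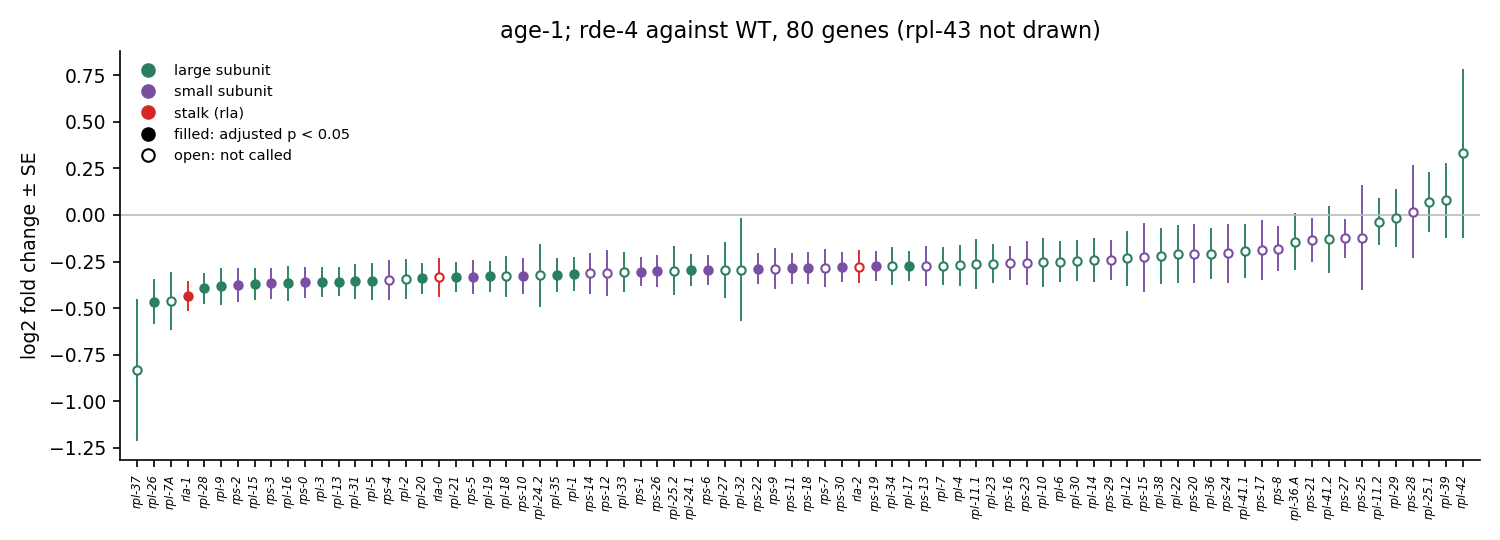
Fitted log2 fold change ± SE of *age-1; rde-4* against WT for 80 ribosomal protein genes, ordered by value (*rpl-43*, with −0.72 ± 1.6, is not drawn). Filled points passed an adjusted p of 0.05 and open points did not. Most genes form a shallow slope around the median of −0.29. Some genes at both ends have wide errors, but not *rla-1* near the left end or the 2 X-linked copies *rpl-11.2* and *rpl-25.1* at the right.

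The number of genes that fell depends on how the fit is set up, more than their median does. Adding the replicate number to the model as a block gave 58, all 30 among them, where 1252 of 16741 genes tested fell. The number was 35 with DESeq2, all 30 among them, where 820 of 16741 genes tested fell. It was 28 with size factors by relative log expression (RLE), where 541 of all genes tested fell. With library totals alone, which moved the median of all genes up by 0.11 in log2, it was 6 (244 of all genes tested fell). It was 5 when the genes of the mitochondrial genome were left out before scaling (276 of 16726 genes tested fell). When the model held only the 6 libraries compared it was 0 (146 of 15908 genes tested fell). In that model 21 genes of the set were lower at an unadjusted p under 0.05. Without the library WT 3, 1 gene fell (*rla-1*), without *age-1; rde-4* 2, 7 genes fell, and without WT 1, *age-1; rde-4* 1 or any one of the *rde-4* and *age-1* libraries, between 15 and 19 genes fell. The gene *rla-1* kept its call in 12 of 12 runs that left out a library (adjusted p of 0.0057 to 0.022), whereas *rpl-28*, *rpl-13*, *rpl-15*, *rps-0* and *rps-2* lost theirs without WT 3, and *rpl-3*, *rps-3*, *rpl-20*, *rpl-21*, *rpl-26* and *rps-6* lost theirs without WT 3, WT 1 and at least one other library. The 5 genes that fell without mitochondrial genes were *rla-1*, *rpl-28*, *rpl-13*, *rpl-3* and *rps-3*. The median of the members lay 0.26 below the median of all genes, a distance that a change of scaling leaves nearly as it is by construction. This distance was 0.21 without *age-1; rde-4* 2, 0.22 without WT 1, 0.32 without *age-1; rde-4* 1 and 0.33 without WT 2.

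The length of a gene moved with the result. In *age-1; rde-4* against WT, the 13 genes with less than 400 bases of exon (*rpl-43* left out) had a median of −0.14 and none fell, and the 67 longer genes had a median of −0.30 with 30 falls. This split was chosen after the values were seen. The short genes stood above the longer ones by 0.33, 0.01 and 0.07 (log2, gene means taken off) in *age-1; rde-4* 1, 2 and 3, and by 0.15, −0.15 and −0.11 in WT 1, 2 and 3. The values were 0.13, −0.14 and −0.02 in *rde-4* 1, 2 and 3 and −0.01, −0.10 and −0.02 in *age-1* 1, 2 and 3, so that the library numbered 1 had the highest value in each of the 4 groups. The part of fragment length or RNA quality in this was not tested. Protein-coding genes outside the set that were also abundant (a mean of 200 CPM or more, a limit chosen after the values were seen) had a median of −0.20 in the same comparison, and 88 of 803 fell.

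Summed markers of some other cell types did not overlap between *age-1; rde-4* and WT. Summed markers of the intestine were at 427 to 696 CPM in *age-1; rde-4*, against 785 to 994 CPM in WT, with 2 of 5 genes lower and 1 higher. Summed sperm markers were at 23.9 to 31.6 CPM in *age-1; rde-4*, against 7.46 to 17.5 CPM in WT, with 3 of 5 genes higher. Their part in the levels of ribosomal protein genes was not tested.

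In *rde-4* single mutants no gene of the set passed the test against WT in edgeR, while 0.866% of all genes tested fell (145) and 3.63% rose (607). At an unadjusted p under 0.05, 29 of 81 genes were lower and none higher, where 4.96% of all genes tested were lower and 9.46% higher, and DESeq2 placed 1 gene, *rla-1*, below its threshold. The 29 became 1 without mitochondrial genes, 1 with only the groups compared, 2 with library totals alone and 3 without *rde-4* 2, and 8 to 17 without *rde-4* 3, WT 1, WT 3, *age-1; rde-4* 2 or any one of the *age-1* libraries. The median log2 fold change was −0.20, beside −0.02 over all genes tested, and 77 of 81 genes were below 0 (52.5% of all genes). In 33 genes the 3 *rde-4* libraries lay under all WT libraries (7.81% of all genes tested). For *rla-1* the *rde-4* libraries held 2126, 2139 and 2112 CPM, against the 2579 to 2691 CPM of WT, with a log2 fold change of −0.30 ± 0.08 (SE) and an adjusted p of 0.058. With a replicate block in the model, 10 of 81 genes fell and none rose, where 318 of 16741 genes tested fell. Without the block, the median moved to −0.11 with library totals alone and to −0.12 without WT 1. Abundant protein-coding genes outside the set had a median of −0.07, with 70.7% of them below 0 and 125 of 803 under every WT library. Summed intestine markers were at 549 to 668 CPM in *rde-4*, against 785 to 994 CPM in WT, with none of 5 called, and summed sperm markers at 13.8 to 29.1 CPM, against 7.46 to 17.5 CPM in WT, with 1 of 5 higher. Their part in the result was not tested.

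In *age-1* single mutants the set stood closest to WT. The median log2 fold change was −0.11, beside 0.03 over all genes tested, although 76 of 81 genes were below 0 (48% of all genes). With library totals alone the median was −0.04, beside 0.09 over all genes, and without WT 1 it was −0.06. A single gene, the X-linked *rpl-11.2*, rose and none fell, while 12.2% of all genes tested rose (2046) and 2.58% fell (432). At an unadjusted p under 0.05, 3 genes were higher (*rpl-11.2*, *rpl-25.1* and *rpl-42*) and 1 was lower (*rpl-11.1*), where 21.1% of all genes tested were higher and 12.2% lower. With a replicate block in the model, 3 of 81 genes rose and 6 fell, where 2989 and 1605 of 16741 genes tested did. The *age-1* libraries lay under all WT libraries in 15 genes, where 17.8% of all genes tested did. Abundant protein-coding genes outside the set had a median of −0.15 in this comparison, with 77.0% of them below 0 and 277 of 803 under every WT library. Summed markers of body wall muscle (1509 to 1879 CPM in *age-1*, against 689 to 1371 CPM in WT, 2 of 5 higher), of hypodermis and cuticle (2464 to 2710 CPM in *age-1*, against 1404 to 2173 CPM in WT, 1 of 5 higher) and of sperm (28.1 to 43.2 CPM in *age-1*, against 7.46 to 17.5 CPM in WT, 3 of 5 higher) stood above WT in every *age-1* library, and their part in the result was not tested. These 3 comparisons share the WT libraries, so that their values are given side by side and were not counted as separate evidence.

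**Figure D3:**
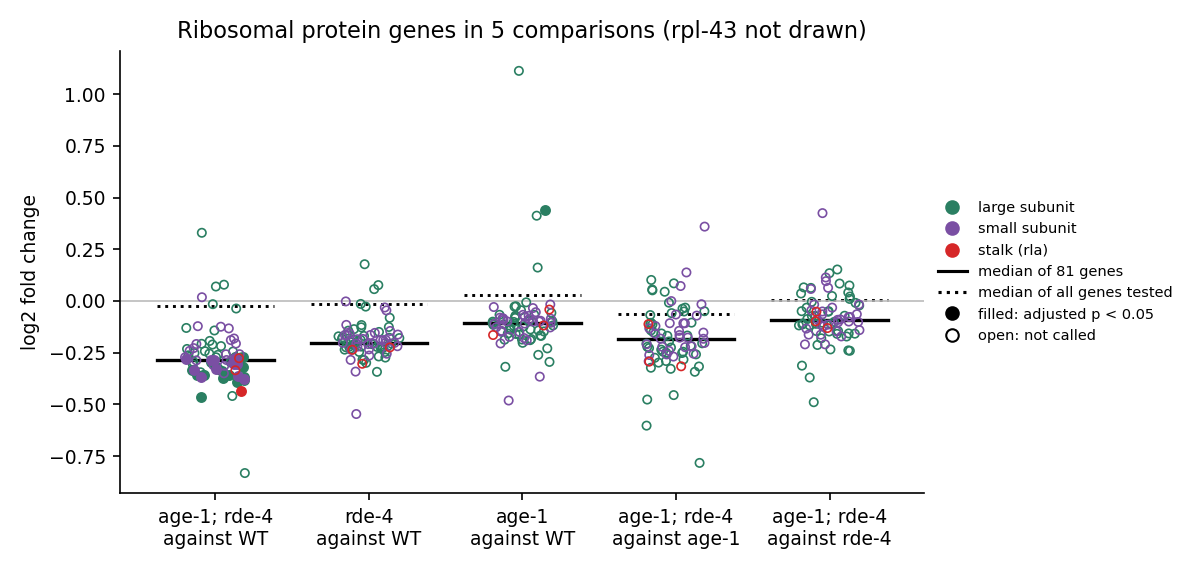
Fitted log2 fold change of 80 ribosomal protein genes in 5 comparisons (*rpl-43* is not drawn), each point 1 gene, coloured by its place in the ribosome and filled where the adjusted p was under 0.05. The solid lines are medians of the 81 genes (−0.29, −0.20, −0.11, −0.18 and −0.09 in the order drawn) and the dotted lines medians of all genes tested (−0.02, −0.02, 0.03, −0.06 and 0.01). The called gene above 0 in *age-1* against WT is *rpl-11.2*.

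The double mutants were then set against each single mutant. Against *age-1*, no gene of the set passed the test in edgeR (0.108% of all genes tested fell and 0.317% rose), and 1 did in DESeq2, *rpl-11.2*. The median log2 fold change was −0.18, beside −0.06 over all genes, and 73 of 81 genes were below 0 (58.8% of all genes). At an unadjusted p under 0.05, 32 genes were lower and none higher, where 5.82% of all genes tested were lower and 5.22% higher. In 38 genes the double mutant libraries lay under all *age-1* libraries (12.4% of all genes tested). *rla-1* was at 1774, 2005 and 2045 CPM in *age-1; rde-4*, against 2490, 2305 and 2456 CPM in *age-1*, with a log2 fold change of −0.32 (adjusted p = 0.14). Leaving the mitochondrial genes out moved the median to −0.10, and 3 genes were then lower at an unadjusted p under 0.05. That count was 16 without *age-1* 1 and 18 without *age-1* 3. Abundant protein-coding genes outside the set had a median of −0.06, with 66.5% of them below 0 and 133 of 803 under every *age-1* library. Summed markers of body wall muscle were at 1041 to 1285 CPM in *age-1; rde-4*, against 1509 to 1879 CPM in *age-1*, with none of 5 called, and their part in the result was not tested.

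Against *rde-4*, no gene passed in edgeR (0.245% of all genes tested fell and 1.34% rose), and 5 were lower and none higher at an unadjusted p under 0.05, where 5.47% of all genes tested were lower and 8.58% higher. The median was −0.09, beside 0.01 over all genes, with 65 of 81 genes below 0 (49.4% of all genes) and 15 under every *rde-4* library (9.64% of all genes). Abundant protein-coding genes outside the set had a lower median, −0.13, with 69.2% of them below 0. Summed markers of hypodermis and cuticle were at 2094 to 2986 CPM in *age-1; rde-4*, against 1383 to 1929 CPM in *rde-4*, with none of 5 called, and their part in the result was not tested. The 1 gene called by DESeq2 here was *rpl-28*, with 199, 213 and 209.7 CPM in *age-1; rde-4*, against 249.7, 256 and 266 CPM in *rde-4*. Its log2 fold change was −0.31 ± 0.08 (SE), with an adjusted p of 0.091 in edgeR. The other lowest values belonged to genes with wide errors, *rpl-43*, *rpl-37* and *rpl-32*.

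Whether the *rde-4* mutation acted differently with and without the *age-1* mutation was asked with the interaction term. No gene of the set passed in edgeR or in DESeq2, 1 was above and 2 below 0 at an unadjusted p under 0.05 (3.8% and 8.17% of all genes tested), and the median was 0.00, beside −0.06 over all genes tested. Over all genes, 9 passed above 0 (0.0538%) and 10 below (0.0597%). The terms farthest from the median of the set were those of *rpl-43* (−5.98, SE 2.4), *rpl-42* (−0.96, SE 0.64) and *rps-25* (0.91, SE 0.40), all genes with a wide spread between libraries.

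Some ribosomal proteins are encoded by a pair of genes. In the *rpl-11* and *rpl-25* pairs, the minor copies had higher means in *age-1* than in WT and the major copies lower ones. Of these copies only *rpl-11.2* passed the test. The uL5 protein RPL-11 binds the 5S ribosomal RNA. Its major gene *rpl-11.1* (T22F3.4, chromosome V from 3585312 to 3586064) was at 2260, 1965 and 2076 CPM in *age-1*, against 3034, 2326 and 2498 CPM in WT, with a log2 fold change of −0.32 ± 0.13 (SE) and an adjusted p of 0.12. Its minor copy *rpl-11.2* (F07D10.1, chromosome X from 2241738 to 2242618) was at 322, 371 and 357 CPM in *age-1*, against 219, 307 and 248 CPM in WT. It rose by 0.44 on the log2 scale (SE 0.13, adjusted p = 0.038). All *age-1* libraries were above all WT libraries in the minor copy and below them in the major copy.

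With *rde-4* mutated as well, every library held less *rpl-11.2* than any *age-1* library. The double mutants held 232, 270.4 and 252 CPM, against the 322, 371 and 357 CPM of *age-1*, a log2 fold change of −0.48 ± 0.13 (SE) and an adjusted p of 0.15 in edgeR and 0.039 in DESeq2. The *rde-4* mutants held 248, 280 and 231 CPM. The interaction term was −0.45 (SE 0.18, unadjusted p = 0.027, adjusted p = 0.36), so that a difference between the backgrounds did not pass the test. The call in *age-1* is itself close to the threshold: it was lost without WT 1 (adjusted p = 0.10), without WT 3 (0.11), without any one of the *age-1* libraries (0.054 to 0.14), without *age-1; rde-4* 3 (0.051), without a filter on low counts (0.061) and without mitochondrial genes (0.054), while the log2 fold change was 0.36 to 0.50 in these runs.

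Of the reads of both copies, taken per kb, *rpl-11.2* held 11.3%, 14.5% and 13.3% in *age-1*, against 6.06%, 10.5% and 8.17% in WT. The share was 7.49%, 11.4% and 9.72% in *age-1; rde-4* and 8.62%, 11.6% and 8.90% in *rde-4*. In an exact two-sided permutation test the difference of *age-1* from WT had p = 0.1, the smallest that 3 against 3 libraries can give, and 0.56 when adjusted over the 15 shares and comparisons tested. How reads that map to both copies were assigned is not given in the sources used here.

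The other member on chromosome X is *rpl-25.1* (F55D10.2, from 4715178 to 4715796), the minor of a pair of genes for the uL23 protein, which RefSeq names *rpl-23A.1*. It was at 12.3, 13.6 and 13.7 CPM in *age-1*, against 9.70, 10.7 and 9.42 CPM in WT, so that all *age-1* libraries were higher. The log2 fold change was 0.41 ± 0.16 (SE), with an adjusted p of 0.095. The major gene *rpl-25.2* was at 1094, 894 and 964 CPM in *age-1*, against 1364, 1047 and 1125 CPM in WT. The pair *rpl-41.1* and *rpl-41.2*, which are neighbours on the genome, kept closer: *rpl-41.1* held 9.16% to 10.5% of the pair in *age-1* and 10.2% to 11.8% in WT.

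**Figure D4:**
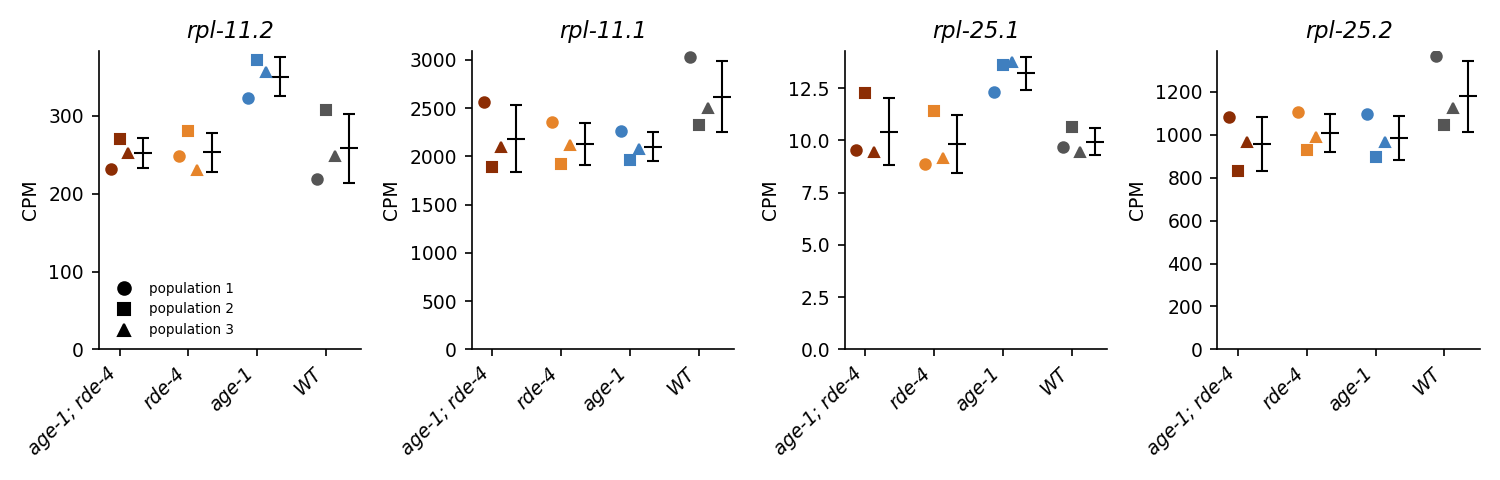
CPM of the minor X-linked copies *rpl-11.2* and *rpl-25.1* and of their major partners *rpl-11.1* and *rpl-25.2* in each population, with mean ± SD (n = 3) and axes from 0. The *age-1* points are the highest for both minor copies (322 to 371 and 12.3 to 13.7 CPM), while for both major copies the highest point is WT 1.

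A few genes went their own way between populations of one group. The level of a gene in its highest library was a median of 1.52 times that in its lowest, and 6 genes exceeded 2 times. For *rpl-43* (Y48B6A.2, chromosome II from 14155294 to 14155569, an eL43 protein with a single exon of 276 bases) the ratio was 213. It was at 0.37, 0.46 and 11.6 CPM in *age-1; rde-4*, at 18.4, 72.4 and 78.5 CPM in *rde-4*, at 76.2, 18.2 and 0.61 CPM in *age-1* and at 0.43, 19.5 and 0.60 CPM in WT. Low and high libraries occurred within 3 of the 4 groups, and no comparison of this gene passed the test in edgeR. Its fitted difference between *age-1; rde-4* and WT (−0.72) became 3.00 without WT 2. How reads that map to several places were counted is not given in the sources used here, and its part in these levels was not tested.

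The gene *rpl-42* (C09H10.1), the lowest of the set, was at 1.399, 1.58 and 1.62 CPM in *age-1*, against 0.28, 1.10 and 0.74 CPM in WT, with a log2 fold change of 1.11 ± 0.45 (SE) and an adjusted p of 0.11. The gene *rpl-37*, another of the lowest, was at 0.90, 1.94 and 3.38 CPM in *age-1; rde-4*, against 3.95, 2.94 and 4.17 CPM in WT, and did not pass. Abundant genes could vary as well. *rps-25*, whose protein is needed by viral entry sites in other animals, was at 2987, 2362 and 2316 CPM in *age-1; rde-4*, with 1690, 1449 and 2570 CPM in *rde-4*. It was at 1800, 2590 and 1584 CPM in *age-1* and at 3790, 2866 and 1685 CPM in WT. *rpl-32* was at 2137, 1052 and 1126 CPM in *age-1; rde-4*, against 2560, 1354 and 1375 CPM in WT, and in both groups population 1 stood alone.

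**Figure D5:**
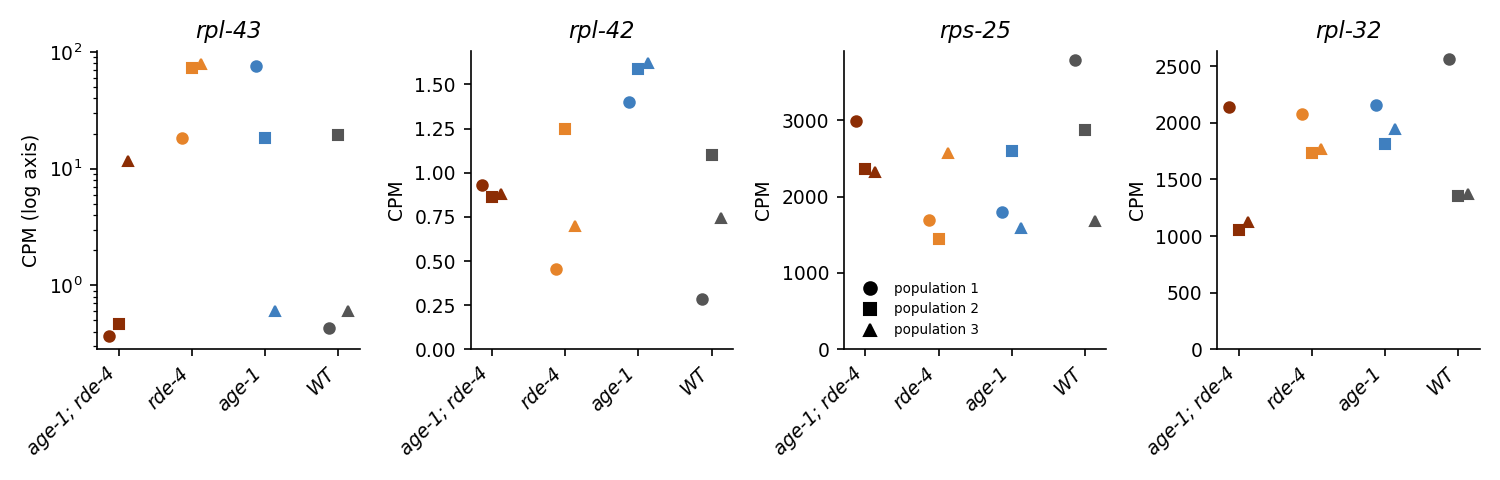
CPM in each population of *rpl-43* (log axis) and of *rpl-42*, *rps-25* and *rpl-32* (linear axes from 0). The 12 libraries of *rpl-43* spread between 0.37 and 78.5 CPM without following the groups, and those of *rps-25* between 1449 and 3790 CPM.

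Over the 12 libraries the genes nevertheless followed a common course. The Pearson r of a gene's log2 CPM with the mean of the other members (*rpl-43* left out of the mean) had a median of 0.75, and 18 of 81 genes (22.2%) reached 0.9 or more, as did 0.234% of the 16660 genes outside the set. The 11 genes under 0.5 included *rpl-42* (−0.37), *rpl-43* (−0.12), *rpl-25.1* (−0.10), *rpl-11.2* (0.00) and *rps-25* (0.08). The 5 genes outside the set that were most like its mean were *puf-12* (0.98), a Pumilio family gene, *ngp-1* (0.97), a nucleolar GTPase gene, *icd-2* (0.97), a subunit of the nascent polypeptide-associated complex, *byn-1* (0.96), the bystin gene, and C37A2.7 (0.96), the last of which is the RefSeq gene *rplp-2.1*. All these points share libraries and scaling, and they are a description. Genes outside the set were not matched to it in abundance, and the part of abundance in r was not tested.

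Genes of the rest of the translation machinery were counted in the same fit. In *age-1; rde-4* against WT, 3.17% of all genes tested fell and 8.95% rose. Of 803 abundant protein-coding genes outside the ribosomal set, 88 fell. Of 35 initiation factor genes, 10 fell in *age-1; rde-4* against WT (median −0.29) and none rose. The alpha subunit gene of eIF2, *eif-2alpha*, was at 158, 154 and 174 CPM in the double mutants, against 236, 204 and 217 CPM in WT, and fell by 0.43 on the log2 scale (adjusted p = 0.0092), as did *inf-1* (fell by 0.43), an eIF4A helicase, and *eif-3.C* (fell by 0.41), a subunit of eIF3. Of 8 elongation and release factor genes 4 fell (median −0.41). Elongation factor 2, *eef-2*, which moves the ribosome by a codon and binds the stalk, was at 4601, 5379 and 5624 CPM in *age-1; rde-4*, against 6450, 7076 and 7483 CPM in WT (fell by 0.43, adjusted p = 0.012). The others named by the rule were *eef-1G* (fell by 0.42) and *eef-1B.1* (fell by 0.40), subunits of the exchange factor of eEF1A.

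Of 31 aminoacyl-tRNA synthetase genes 11 fell (median −0.30), where 3.17% of all genes tested fell. They included *aars-1* for alanine (fell by 0.47), *kars-1* for lysine (fell by 0.41) and *lars-1* for leucine (fell by 0.36). Of 21 ribosome biogenesis genes 8 fell (median −0.30), among them *nol-56* (fell by 0.47) and *nol-58* (fell by 0.46), core proteins of the box C/D snoRNPs that methylate ribosomal RNA, and the GTPase gene *nog-1* (fell by 0.36). Mitochondrial ribosomal protein genes are a separate set for the ribosome of another organelle. Of 69 tested, 8 fell (median −0.27), including *mrps-5* (fell by 0.34), *mrps-14* (fell by 0.36) and *mrps-22* (fell by 0.42). None of 6 RNA polymerase I subunit genes passed in edgeR (median −0.26, 4 lower at an unadjusted p under 0.05 and 0 called by DESeq2). Of the 4 genes with a ribosomal protein symbol in RefSeq alone, 2 fell, *ubl-1* (fell by 0.49, adjusted p = 0.04995) and C37A2.7 (fell by 0.34). Of the genes named from these lists, *eef-2* and *inf-1* kept their call whichever library was left out, and each of the others lost it without WT 3. None was called with only the 6 libraries of the 2 groups.

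The same lists gave few calls elsewhere. Over all genes tested, 0.866% fell and 3.63% rose in *rde-4* against WT. In *age-1* against WT, 2.58% fell and 12.2% rose. In *rde-4* against WT only *fars-2*, a phenylalanine-tRNA synthetase gene, passed in edgeR, with a fall of 0.34 on the log2 scale (adjusted p = 0.043). In *age-1* against WT, *eef-1A.2* (R03G5.1), the second gene of eEF1A and also on chromosome X, was at 288, 407 and 348 CPM in *age-1*, against 166, 238 and 215 CPM in WT, and rose by 0.75 (SE 0.18, adjusted p = 0.021). *ife-2*, an eIF4E cap-binding protein, also on chromosome X, rose by 0.32 (adjusted p = 0.045), and *eif-2A* (fell by 0.32), *mrpl-51* (fell by 0.46) and *mrps-26* (fell by 0.37) fell. How many of all X-linked genes rose in *age-1* was not counted here. The nucleolar size regulator *ncl-1* (chromosome III), a known repressor of ribosomal RNA synthesis in this worm, was at 141, 127 and 120 CPM in *age-1*, against 71.9, 78.3 and 88.6 CPM in WT, and rose by 0.70 (SE 0.16, adjusted p = 0.018). In *age-1; rde-4* it was at 49.5, 81.2 and 73.7 CPM, against the 141, 127 and 120 CPM of *age-1*, and fell by 0.93 (SE 0.16, adjusted p = 0.033). It was the only gene of these lists that passed in edgeR between the double mutant and a single mutant. The 6 calls of these lists in *age-1* against WT were all lost without WT 1, *fars-2* kept its call in 3 of 12 runs that left out a library, and *ncl-1* in the double mutant against *age-1* in 7 of 12.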

How the data were processed

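The data are whole-worm mRNA of 12 populations, 3 independent populations of each genotype. The authors deposited whole-number read counts for 46653 identifiers without normalization. The submitters' processing notes name HISAT2 2.0.5, StringTie and the WBcel235 build. Names and exon lengths came from the Ensembl release 115 annotation of that build and from RefSeq, and 46181 identifiers matched. Member genes and lists were chosen with earlier results of these data known. Replicates differed far beyond sampling noise (chi-square per gene 35.1 to 246), so none is a copy of another.

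The tests used edgeR 4.0.16 in R 4.3.3 (filterByExpr, TMM, glmQLFit, glmQLFTest, two-sided), with 1 model of the 4 groups, p-values adjusted over 16741 genes and a threshold of 0.05. Standard errors come from the fit. log2 CPM used a prior count of 2. Alternatives were DESeq2 1.42.0, RLE size factors, TMM factors without the member genes, library totals, no filter, a mean of 50 counts, a replicate block, the groups compared alone and each library left out. Leaving out the mitochondrial genome was added after the data were seen. The methods were tested on simulated data.

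Genes named are, per comparison, the 5 highest and 5 lowest members and up to 10 called, paralog copies and stalk genes, the 5 highest and lowest per kb, the 3 farthest interaction terms, up to 3 called genes of each list per comparison, and the 5 genes most like the members. Some named by this rule are shown only in the plots. Promoter motifs and protein sequences were not analysed here.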

Additional observations from a re-analysis of the deposited data

How the results depend on the processing

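The log2 fold change of *rpl-43* in *age-1; rde-4* against WT changed direction without WT 2 (3.00), and ran between −4.03 and 3.00 over the libraries left out. Of 1088 single-gene values, 1 changed direction (this one), 822 kept their direction and their side of the threshold, 244 lost a call and 21 gained one. In *age-1; rde-4* against WT, where 30 genes were called, 6 were called with library totals alone (median −0.17), 5 without mitochondrial genes, 0 with only the groups compared and 58 with the replicate block, and between 1 and 26 when 1 library was left out (median −0.31 to −0.17). No filter and a mean of 50 counts each gave 20 calls (338 of 28373 and 414 of 13067 genes tested fell). In *rde-4* against WT, none was called. It was 1 with DESeq2 (299 of all genes tested fell), 1 at a mean of 50 counts (136 fell) and 10 with the replicate block (318 fell). The median was −0.11 with library totals alone. Leaving out 1 library gave 0 to 1 calls and medians of −0.24 to −0.12. In *age-1* against WT, 1 was called. It was 0 with no filter, 0 without mitochondrial genes and 9 with the block (3 higher and 6 lower), and 0 to 2 with 1 library left out (median −0.15 to −0.06), and the median was −0.04 with library totals alone. Against *age-1*, the double mutant had 1 call with DESeq2 (158 of all genes tested fell) and 3 with the block (108 fell). Its median there was −0.10 without mitochondrial genes. Against *rde-4* the double mutant had 1 call with DESeq2 (181 of all genes tested fell) and 1 with the block (185 fell). Its median there was −0.12 to −0.020 with 1 library left out.

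The replicate numbers were not taken to pair the samples, since in 0 of 5 comparisons did every same-numbered pair of libraries have deviations correlated above 0.1. As a hint from the data, same-numbered libraries had r of −0.02 to 0.37 (median 0.16, 12 of 18 above 0.1). The median was −0.06 for differently numbered ones, and 10 of 12 libraries correlated best with one of their own number. Deviations were taken from group means, so that these medians are not independent of each other. The rule is strict, so that a pairing is not excluded, and counts with the replicate block are given beside the others. The share of counts in the 81 genes was 11.71%, 11.95%, 12.5% and 13.02% of protein-coding counts in *age-1; rde-4*, *rde-4*, *age-1* and WT, and 11.91%, 12.13%, 12.68% and 13.21% of nuclear protein-coding counts. With 1 library left out, the mean shares of all counts were 9.84% to 10.4%, 10.2% to 10.7%, 10.88% to 11% and 11.23% to 11.59%. Members differ from WT by less than 0.5 in log2 in nearly all cases, and 3 populations per group limit what a test can find at that size.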
